A study of Mus musculus with 23 samples.

Results

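Bile acid synthesis and transport in the liver was followed through 10 genes, each taken with every probe set that the platform annotation gave to that gene alone. They were the cytochrome P450 enzymes Cyp7a1, Cyp8b1, Cyp27a1, Cyp7b1 and Cyp39a1, the conjugating enzyme Baat, the transporters Slc10a1 and Abcb11, and the nuclear receptors Nr1h4 and Nr0b2. They had 16 probe sets out of 45037 tested, and they were 10 of 18193 genes measured. Each gene was represented by its probe set with the highest mean over the 23 arrays, and the others are given beside it. Cyp39a1 was singled out with its pattern already known, lower with both time and treatment, so its differences are descriptions and support nothing.

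All groups were livers of male mice, hemizygous for human SULT1A1 and SULT1A2 on the FVB/N background (FVB/N-SULT1A1/2), whose age is labelled 5 weeks in every group without saying at which point of the study. Human sulfotransferases can turn 1-MIM-OH, 1-methoxy-3-indolylmethyl alcohol from Brassica vegetables, into a reactive ester, and animals of all groups carried the transgene, the vehicle animals included. Treated mice were given oral 1-MIM-OH, 26 mg/kg body mass each time and 3 times weekly, and vehicle mice received glyceryl trioctanoate alone. Groups were killed after 10 treatments (21 d) or 40 treatments (90 d), 24 h after the last one. There were 6 vehicle and 5 treated arrays at 21 d and 6 of each at 90 d, 1 animal per array; the submitters left out 1 further treated array at 21 d for hybridisation artefacts. All levels below are log2 signals of liver RNA, and a difference of 1 is a doubling.

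The liver makes bile acids from cholesterol. In the classic pathway Cyp7a1 sets the pace and Cyp8b1 adds the hydroxyl group that yields cholic acid; the alternative pathway starts with oxidation of the side chain, by Cyp27a1 for instance. The oxysterols formed are then hydroxylated by Cyp7b1 or, in the case of 24-hydroxycholesterol, by Cyp39a1. Baat joins the acids to taurine or glycine, Abcb11 exports the salts into bile, and Slc10a1 takes them up again from blood. Bile acids bind Nr1h4 (FXR), which induces Nr0b2 (SHP), and Nr0b2 represses Cyp7a1 and Cyp8b1.

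Upstream sequences are shown for 3 members that stand at different points of this loop, the repressor Nr0b2, the exporter Abcb11 and the enzyme Cyp8b1. Each is the 250 bases before the RefSeq gene start in GRCm38.p6, 5′ to 3′ on the strand of the gene. Capitals mark the letters AGGTCA (bound by many nuclear receptors), TCAAGG (the core bound by Nr5a2) or CAAAGTCCA (a site of Hnf4a), on either strand; these motifs overlapped nowhere in the 3 windows. The windows are chr4:133553126-133553375, plus strand, for Nr0b2, chr2:69342617-69342866, minus strand, for Abcb11, and chr9:121916306-121916555, minus strand, for Cyp8b1.
Nr0b2: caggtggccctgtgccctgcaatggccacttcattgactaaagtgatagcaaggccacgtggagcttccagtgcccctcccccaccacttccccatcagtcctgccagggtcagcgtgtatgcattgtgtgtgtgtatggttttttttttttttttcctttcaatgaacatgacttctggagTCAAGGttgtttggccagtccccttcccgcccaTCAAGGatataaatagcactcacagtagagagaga
Abcb11: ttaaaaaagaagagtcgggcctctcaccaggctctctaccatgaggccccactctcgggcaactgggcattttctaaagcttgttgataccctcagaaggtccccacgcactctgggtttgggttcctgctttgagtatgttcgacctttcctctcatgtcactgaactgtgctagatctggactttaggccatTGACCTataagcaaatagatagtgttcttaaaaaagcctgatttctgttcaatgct
Cyp8b1: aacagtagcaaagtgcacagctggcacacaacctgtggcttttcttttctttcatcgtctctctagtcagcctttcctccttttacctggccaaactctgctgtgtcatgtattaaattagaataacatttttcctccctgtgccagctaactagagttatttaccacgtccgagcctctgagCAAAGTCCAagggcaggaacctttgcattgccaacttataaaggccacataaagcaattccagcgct

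The table of promoters held 6 of the 10 genes (Cyp8b1, Cyp27a1, Slc10a1, Abcb11, Nr1h4 and Nr0b2). Nr0b2 held the Nr5a2 core at 68 to 63 and again at 35 to 30 bases before the start. Abcb11 held AGGTCA on the opposite strand, as TGACCT, at 56 to 51 bases, and Cyp8b1 held the Hnf4a letters at 67 to 59 bases. Of the windows not shown, the Nr1h4 window held AGGTCA on the opposite strand and 1 of 2 Slc10a1 windows held it on the same strand, while the Cyp27a1 window and the other Slc10a1 window held none of the 3 motifs. Of 32851 windows of this length, 14% held the AGGTCA letters, 12.5% the TCAAGG letters and 0.384% the Hnf4a letters. Such a match is a run of letters, and binding was not measured.

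The arrays behind these values were alike in the averages of hepatocyte and bile duct markers. They differed in RNA quality and in acute phase, clock and Kupffer cell genes. Hepatocyte markers averaged 14.18 to 14.42 on every array, and the bile duct markers, 5 of 7 measured, averaged 5.07 to 5.63. Single markers differed without passing. In treated against vehicle animals at 90 d the hepatocyte gene Tat was at -0.35 ± 0.12 (SE, limma adjusted p = 0.278). Its groups did not overlap, as for 246 of 18193 genes. The bile duct gene Krt7 was at 0.38 ± 0.11 (SE, limma adjusted p = 0.141). There 6 of 7 hepatocyte markers lay below 0 and 4 of 5 bile duct markers above 0. Between treated times all 5 bile duct markers were higher at 90 d. The gap between the 3′ and 5′ control probe sets of Gapdh, a sign of RNA quality, exceeded 0.9 on 5 arrays, which were replicates 1, 3, 4 and 5 of the treated group at 21 d, and replicate 6 of the treated group at 90 d. It was 0.74 or less on the other 18. The remaining treated 21 d array, replicate 2, stood apart in another way, with the acute phase gene Saa1 at 14.83 against 10.75 to 11.87 in its group and the clock gene Dbp at 7.62 against 11.13 to 13.24. It also had the highest Kupffer cell score of all arrays (2.37, a mean of standardised marker values). High Saa1 occurred in other groups too, for instance 14.12 in vehicle 21 d replicate 1 and 14.56 in treated 90 d replicate 3. Of 8 Kupffer cell markers 0 passed in either treatment comparison, where 1.17% of all genes passed at 21 d and 0.748% at 90 d. The array means of these markers ran from 8.16 to 11.06. All 8 differences lay below 0 at 21 d (median -0.39) and above 0 at 90 d (median 0.36). Below 0 at 21 d were also 10240 of 18193 genes, and above 0 at 90 d 10413. Of 12 clock genes, beside the same shares of all genes, 0 passed at 21 d and 1 at 90 d, Cry1 (-0.52 ± 0.12, SE, limma adjusted p = 0.0462). Within groups, the Gapdh gap, Dbp and an acute phase score were correlated with the bile acid genes, 30 pairs over 23 arrays. No Pearson coefficient had an adjusted permutation p under 0.109. The Gapdh gap and Cyp7b1 gave r = 0.715 (adjusted p = 0.109). Dbp gave 0.723 with Nr0b2 (adjusted p = 0.181) and -0.537 with Cyp8b1 (adjusted p = 0.14). Without the 2 arrays farthest from the median measure these were 0.442, 0.483 and -0.247. The part of Kupffer cell, acute phase and clock genes in the group differences was not tested. Values without the arrays named above, or with the Gapdh gap as a covariate, are given where they moved a result.

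Cyp39a1, the 24-hydroxycholesterol 7alpha-hydroxylase, had a lower mean in each successive group, read from its only probe set (1418780_at). The 6 vehicle arrays at 21 d read 8.02, 8.26, 8.26, 8.13, 7.92 and 8.24. The 5 treated arrays at 21 d read 7.78, 7.08, 8.05, 7.51 and 7.71. At 90 d the vehicle arrays read 7.04, 6.71, 7.37, 6.60, 6.75 and 7.50. Treated arrays at 90 d were the lowest, at 5.97, 5.58, 5.45, 6.53, 6.13 and 5.44. The group means were 8.14 ± 0.14 (SD, n = 6), 7.63 ± 0.36 (SD, n = 5), 7.00 ± 0.37 (SD, n = 6) and 5.85 ± 0.44 (SD, n = 6) in that order. Vehicle and treated arrays at 21 d overlapped, since treated replicate 3 lay above vehicle replicates 1 and 5. Treated arrays at 21 d and vehicle arrays at 90 d also overlapped, whereas the highest treated array at 90 d (6.53) lay below the lowest vehicle array (6.60).

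**Figure D1:**
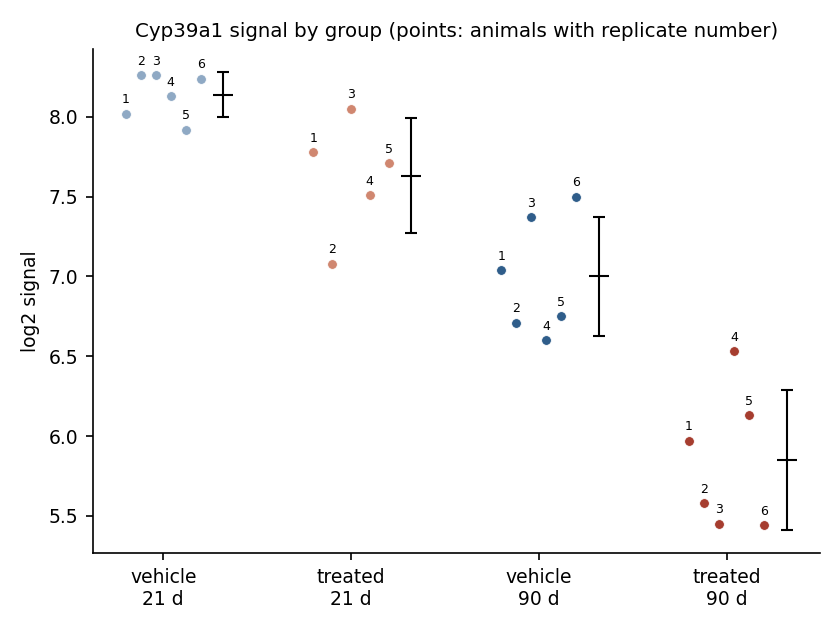
Cyp39a1 log2 signal (vertical axis) in the 4 groups; each point is 1 animal with its replicate number, and black bars are the group mean ± SD. The values step down from 7.92 to 8.26 in vehicle animals at 21 d to 5.44 to 6.53 in treated animals at 90 d.

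The difference of Cyp39a1 between treated and vehicle animals was -0.51 ± 0.19 (SE) at 21 d and -1.14 ± 0.18 (SE) at 90 d, the latter a signal 2.21 times lower. Vehicle animals at 90 d minus vehicle animals at 21 d also gave -1.14 ± 0.18 (SE). These 2 comparisons share the vehicle arrays at 90 d. Between treated animals at 90 d and 21 d the difference was -1.78 ± 0.19 (SE), a signal 3.42 times lower. The treatment difference at 90 d minus that at 21 d was -0.63, with an unadjusted 95% interval from -1.19 to -0.08. It did not pass (limma, adjusted p = 0.492). In bulk liver RNA, fewer cells that express a gene and less RNA per cell cannot be told apart. The vehicle groups at 21 d and 90 d differ in treatment count and duration, and array processing by time is not labelled, so time and any handling that went with it cannot be told apart.

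The 90 d treatment difference of Cyp39a1 stayed between -1.28 and -1.04 over all 23 refits without 1 array and 10 other settings, and the vehicle time difference between -1.24 and -1.06. Without 1 array, the treatment comparison at 90 d passed in 23 of 23 refits and the vehicle time comparison in 12 of 23. Cyp39a1 was chosen for this pattern, so these counts describe how the calls hung on single arrays and support nothing. The 21 d treatment difference depended on the arrays used. Without the arrays of a large Gapdh gap 1 treated array was left at 21 d, replicate 2, the lowest Cyp39a1 value of its group (7.08) and the array with high Saa1. The 21 d difference was then -1.06, the difference between treated times -1.15, and the treatment difference at 90 d minus that at 21 d was 0. Without replicate 2 the 21 d difference was -0.38.

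Within groups, the Cyp39a1 signal was set against an acute phase score, the mean of the standardised values of 10 acute phase genes. The correlation of deviations from group means over the 23 arrays was Pearson r = -0.641 (permutation p = 0.00444, adjusted p = 0.109 over 30 pairs of an array measure and a gene) and Spearman rho = -0.586 (permutation p = 0.01037, adjusted p = 0.156). Without the 2 arrays farthest from the median score r was -0.496. Treated 90 d replicates 3 and 6, with Saa1 at 14.56 and 14.10, had the lowest Cyp39a1 values (5.45 and 5.44), but replicate 2, with Saa1 at 10.42, was also low at 5.58. Neither coefficient passed adjustment.

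Of the other 9 genes, 0 passed limma at an adjusted p under 0.05 in any of the 5 comparisons. In treated against vehicle animals at 21 d 1.17% of all genes passed, and at 90 d 0.748%, or 0.247% in the lower direction. In vehicle animals at 90 d against 21 d 0.011% of all genes passed, between treated animals at 90 d and 21 d 0.0934%, and for the difference of the treatment effects 0%. Cyp39a1 passed at 90 d and in both time comparisons; its choice fixed these calls, and nothing is read from them or from the shares beside them.

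Without Cyp39a1 the 9 genes had median differences of -0.07 at 21 d and -0.06 at 90 d in treated against vehicle animals, beside -0.02 and 0.02 over all genes. Unadjusted p-values were under 0.05 for 1 of the 9 at 21 d (Slc10a1) and 2 of the 9 at 90 d (Slc10a1 and Baat), and for 3026 and 2196 of 18193 genes. They were under 0.05 for 3 of the 9 between the vehicle times (Cyp8b1, Cyp27a1 and Abcb11) and for 1 of the 9 between the treated times (Abcb11), and for 1170 and 2420 of all genes. For the difference of the treatment effects they were under 0.05 for 0 of the 9 and 1572 of all genes. Of the 9, the groups did not overlap for 1 gene, Cyp27a1, in the vehicle time comparison, where this held for 0.808% of all genes. Cyp39a1 stood outside this count, since it was chosen for its pattern.

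**Figure D2:**
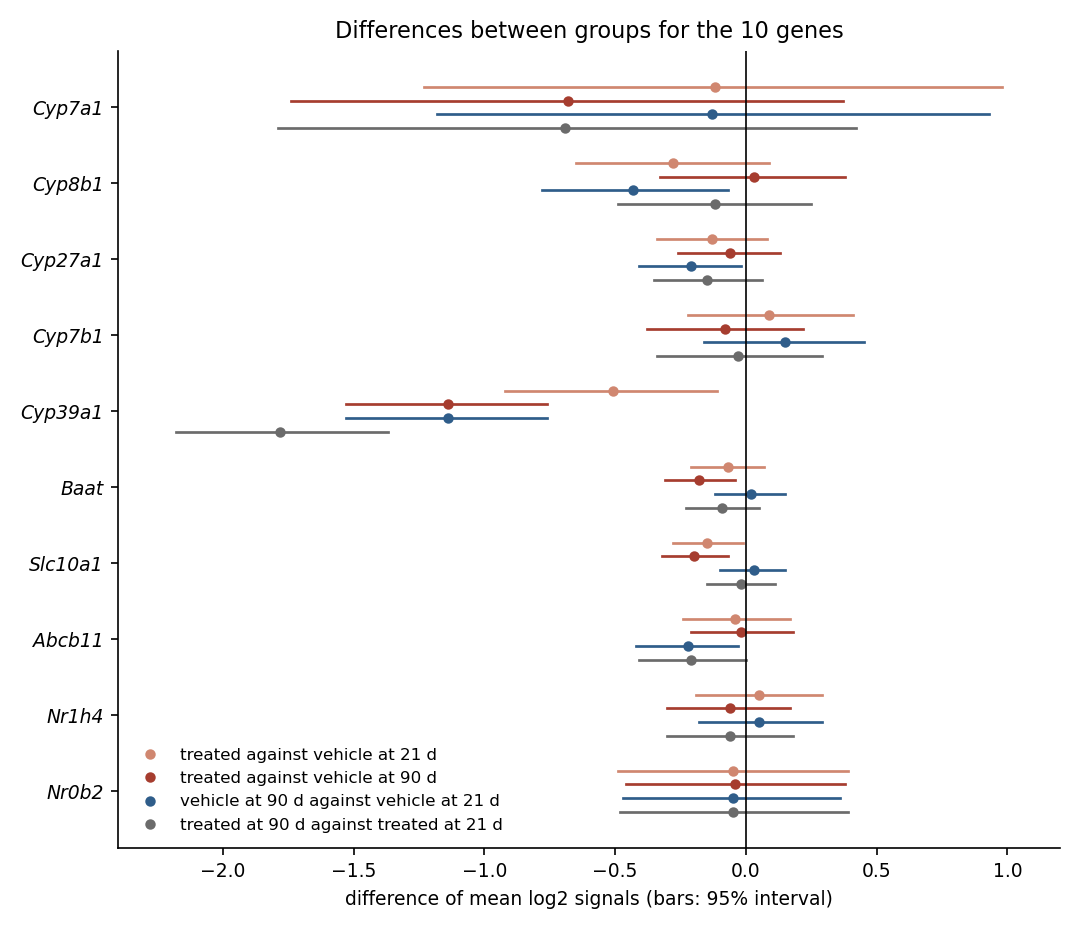
Difference of mean log2 signals (horizontal axis) for the 10 genes in 4 comparisons, with 95% intervals as bars. The Cyp39a1 differences run from -0.51 to -1.78, while those of the other genes lie between -0.69 and 0.15; Cyp7a1 has the widest intervals.

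Cyp7a1, the rate-limiting enzyme of the classic pathway, varied more between animals of 1 group than between groups. Its vehicle arrays at 21 d read 10.27, 10.38, 11.12, 11.88, 11.54 and 12.72, and its treated arrays 11.21, 12.66, 11.56, 10.74 and 9.82. At 90 d its vehicle arrays read 11.80, 11.17, 12.43, 11.89, 10.81 and 9.05, and its treated arrays 10.27, 10.01, 10.78, 10.81, 9.76 and 11.43. All 4 groups overlapped, and 1 vehicle animal at 90 d, replicate 6, was the lowest of all. The treatment difference was -0.12 ± 0.53 (SE) at 21 d and -0.68 ± 0.50 (SE) at 90 d, the latter with a 95% interval from -1.74 to 0.37 (limma, adjusted p = 0.695). The 90 d value ran from -1.11 to -0.43 over the refits without 1 array. The 21 d value was -0.49 without treated replicate 2 and 1.34 with that array as the only treated one, where the difference between treated times was -2.33. The second Cyp7a1 probe set (1422100_at) gave -0.81 ± 0.44 (SE) at 90 d, and also did not pass. The within-group SDs of the representative Cyp7a1 probe set were 0.61 to 1.19, the widest of the 10 genes.

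Cyp8b1, the sterol 12alpha-hydroxylase, had like means in treated and vehicle animals at 90 d. Its vehicle arrays at 21 d lay together between 12.23 and 12.48 (12.39 ± 0.10, SD, n = 6). The treated arrays at 21 d were wider, at 12.06, 12.69, 11.64, 11.98 and 12.20. Replicate 2, the array with high Saa1 and low Dbp, was the highest of these for both Cyp8b1 and Cyp7a1. The 21 d difference was -0.28 ± 0.18 (SE; limma, adjusted p = 0.486), -0.42 without replicate 2, and 0.30 when only that treated array was kept. At 90 d vehicle arrays averaged 11.96 ± 0.40 (SD, n = 6) and treated arrays 11.99 ± 0.31 (SD, n = 6). Vehicle 90 d replicate 6 was the lowest array for Cyp8b1 (11.23), as it was for Cyp7a1 (9.05).

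Cyp27a1, the mitochondrial enzyme that oxidises the sterol side chain, had vehicle groups that lay apart. Its vehicle arrays lay between 12.34 and 12.57 at 21 d and between 12.21 and 12.28 at 90 d, so these groups did not overlap. The difference was -0.21 ± 0.09 (SE) and did not pass (limma, adjusted p = 0.801). The treated arrays read 11.96, 12.12, 12.36, 12.77 and 12.44 at 21 d, on both sides of the vehicle range. Treatment differences were -0.13 ± 0.10 (SE) at 21 d and -0.06 ± 0.09 (SE) at 90 d. A second probe set (1457665_x_at) had a mean of 2.90, near the lower end of all values.

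Cyp7b1, the oxysterol 7alpha-hydroxylase of the alternative pathway, had 1 array far from the rest. The treated arrays at 21 d read 13.52, 12.51, 13.54, 13.57 and 13.36, with replicate 2 well below the others. Group means were 13.21 ± 0.24 and 13.30 ± 0.45 at 21 d, and 13.35 ± 0.16 and 13.27 ± 0.18 at 90 d (SD, vehicle first). The treatment difference was 0.09 ± 0.15 (SE) at 21 d, or 0.29 without replicate 2 (limma, adjusted p = 0.136), and -0.08 ± 0.14 (SE) at 90 d. With replicate 2 as the only treated array at 21 d it was -0.70 (limma, adjusted p = 0.0872), and the difference between treated times was 0.71. Of the other Cyp7b1 probe sets, 1421075_s_at gave 0.22 ± 0.18 (SE) at 21 d and 1446995_at was dim, with a mean of 3.17. Beside the 90 d treatment difference of -1.14 for Cyp39a1, the other oxysterol 7alpha-hydroxylase, the 95% interval for Cyp7b1 ran from -0.38 to 0.22; the 2 genes were not tested against each other.

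**Figure D3:**
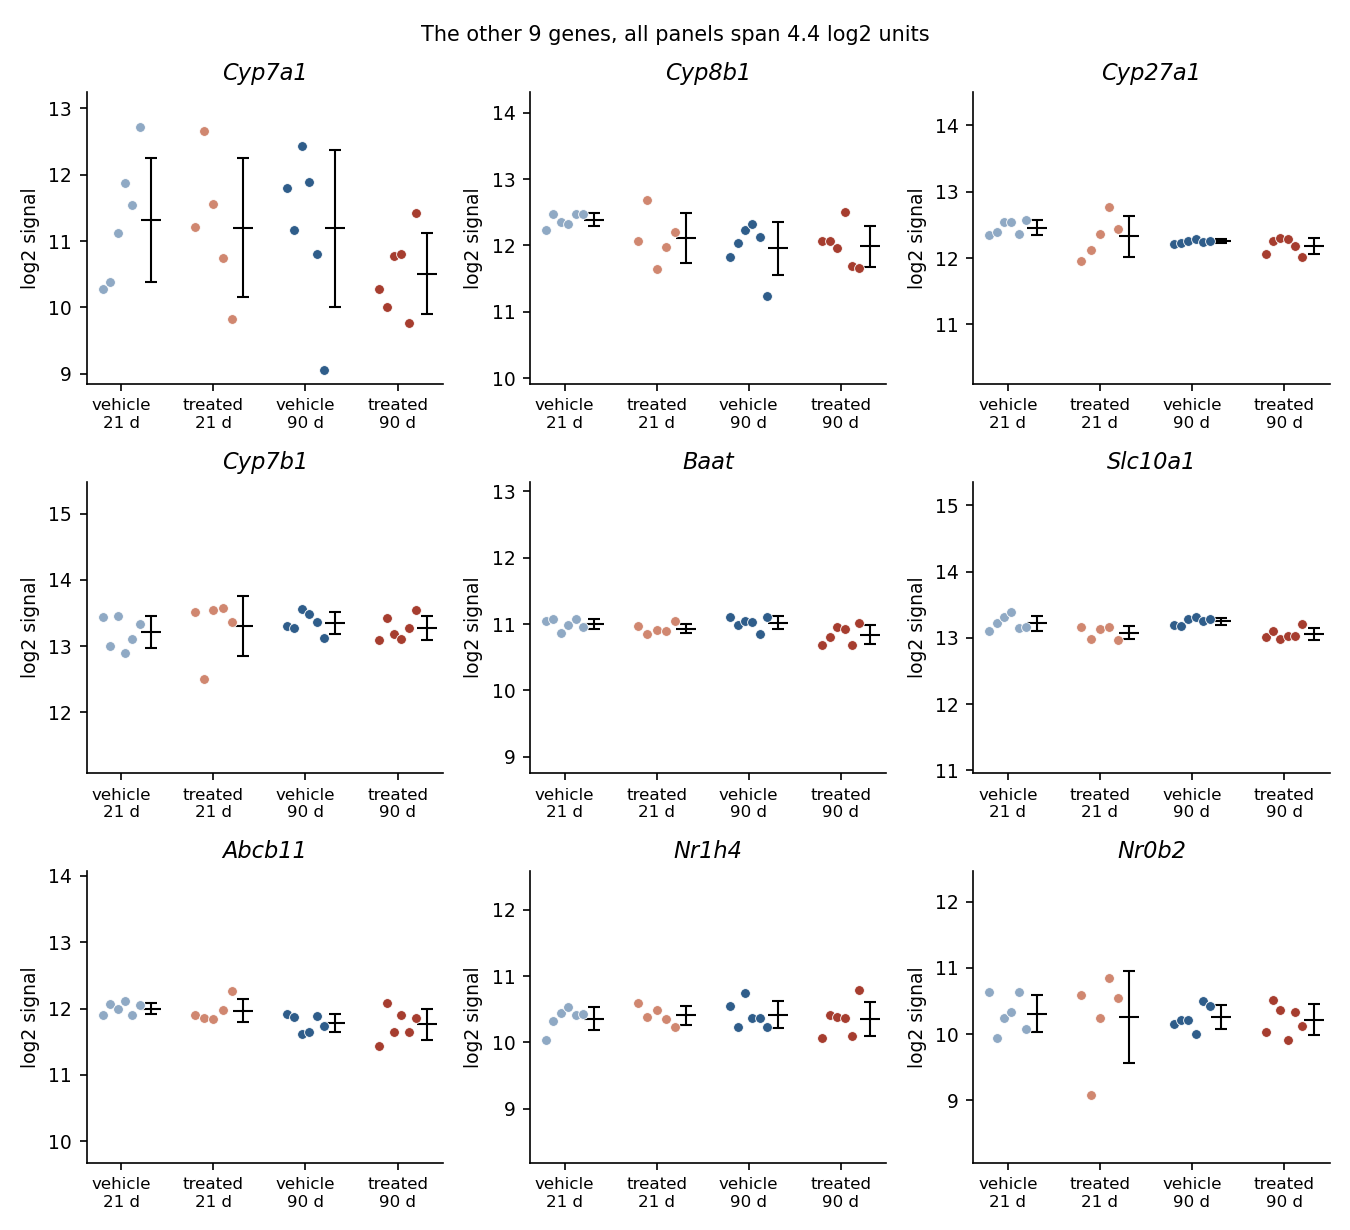
Log2 signal (vertical axes, each spanning 4.4 units) of the other 9 genes in the 4 groups; points are animals and black bars the group mean ± SD. Cyp7a1 scatters most, from 9.05 to 12.72, and treated 21 d replicate 2 is a single low point for Cyp7b1 (12.51) and Nr0b2 (9.09).

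Baat, the enzyme that joins bile acids to amino acids, had its larger treatment difference at 90 d. Vehicle arrays read 11.10, 10.98, 11.04, 11.03, 10.85 and 11.11, and treated arrays 10.68, 10.81, 10.95, 10.92, 10.69 and 11.01. The groups overlapped, but 3 treated arrays lay below every vehicle array. The difference was -0.18 ± 0.06 (SE; limma, adjusted p = 0.312), and the second probe set (1419001_at) gave -0.18 ± 0.07 (SE) at 90 d. At 21 d the differences were -0.07 ± 0.07 (SE) and, for the second probe set, -0.18 ± 0.08 (SE).

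Slc10a1, the sodium-dependent bile salt uptake carrier (NTCP), was below the vehicle mean in treated animals at both times, without passing. At 90 d its vehicle arrays read 13.20, 13.18, 13.29, 13.31, 13.25 and 13.29, and its treated arrays 13.01, 13.11, 12.98, 13.02, 13.02 and 13.21. Treated replicate 6, an array with a large Gapdh gap, was the only treated array above a vehicle array. The difference was -0.20 ± 0.06 (SE; limma, adjusted p = 0.181) at 90 d and -0.15 ± 0.06 (SE; adjusted p = 0.253) at 21 d. The 90 d value stayed between -0.23 and -0.18 over all refits.

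The second Slc10a1 probe set (1450261_a_at) was lower in treated animals at 21 d and passed, where 0.957% of all probe sets passed. Its vehicle arrays at 21 d read 12.21, 12.38, 12.48, 12.49, 12.17 and 12.32, and its treated arrays 12.10, 12.12, 11.96, 12.21 and 11.72. Treated replicate 4 reached the vehicle range, so the groups overlapped. The difference was -0.32 ± 0.08 (SE; limma, adjusted p = 0.0442). It passed in 8 of 23 refits without 1 array and in 4 of 9 other settings, with values from -0.37 to -0.22 and adjusted p up to 0.482. The pass ended without vehicle 21 d replicates 2, 3, 4 or 6, treated 21 d replicates 1, 3 or 5, any vehicle array at 90 d, or treated 90 d replicates 2 or 4. At 90 d its vehicle arrays (12.16 to 12.35) and treated arrays (11.99 to 12.13) did not overlap, where 1.01% of all probe sets did not, and the difference of -0.20 ± 0.07 (SE) did not pass (limma, adjusted p = 0.297).

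Abcb11, the bile salt export pump, gave treatment differences within its spread. The means were 12.00 ± 0.09 and 11.97 ± 0.17 at 21 d and 11.78 ± 0.13 and 11.76 ± 0.23 at 90 d (SD, vehicle first). The 95% intervals of the treatment difference ran from -0.24 to 0.17 at 21 d and from -0.21 to 0.18 at 90 d. The vehicle time difference was -0.22 ± 0.09 (SE) and the treated one -0.21 ± 0.10 (SE), neither past adjustment (limma, adjusted p = 0.78 and 0.361).

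The means of the receptors lay close together across the groups. Nr1h4, the bile acid receptor, had means of 10.36 ± 0.17, 10.41 ± 0.14, 10.42 ± 0.20 and 10.35 ± 0.26 (SD, in the order vehicle 21 d, treated 21 d, vehicle 90 d, treated 90 d). Its treatment differences were 0.05 ± 0.12 (SE) and -0.06 ± 0.11 (SE). Nr0b2, the repressor that Nr1h4 induces, read 10.59, 9.09, 10.24, 10.84 and 10.55 in treated animals at 21 d, where replicate 2 was the lowest array of all. Its treatment differences were -0.05 ± 0.21 (SE) at 21 d and -0.04 ± 0.20 (SE) at 90 d. Without replicate 2 the 21 d value was 0.24. With that animal as the only treated array at 21 d it was -1.22 and passed (limma, adjusted p = 0.0221), assuming that the lone array varies like the other groups.

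In that 1 animal, treated 21 d replicate 2, several genes lay at an end of their group together. Nr0b2, Cyp7b1 and Cyp39a1 were the lowest of the 5 treated arrays, at 9.09, 12.51 and 7.08. Cyp7a1 and Cyp8b1 were the highest, at 12.66 and 12.69. Its Gapdh gap was 0.14, within the range of the vehicle arrays, while the other 4 arrays of its group exceeded 0.9. The values of 1 animal stand here without a test.

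Animals of the same group differed in ways that some of these genes shared. Among the 45 pairs of the 10 genes, deviations of Cyp7a1 and Nr1h4 from their group means went together over 23 arrays, with Pearson r = 0.636 (permutation p = 0.00108, adjusted p = 0.0486) and Spearman rho = 0.671 (permutation p = 0.00148, adjusted p = 0.0666). Without the 2 arrays farthest from the median of Cyp7a1, r was 0.702, and over the 18 arrays with a small Gapdh gap it was 0.619. The rank coefficient missed the threshold, so the pair stands at its edge. Cyp7a1 and Nr0b2 deviated in opposite directions (r = -0.528, permutation p = 0.01443, adjusted p = 0.216; rho = -0.525, permutation p = 0.01552, adjusted p = 0.349), with r = -0.432 without the 2 farthest arrays. That pair did not pass. Slc10a1 and Nr1h4 (r = 0.589, permutation p = 0.00371, adjusted p = 0.0835; rho = 0.48, permutation p = 0.02749, adjusted p = 0.412) did not pass either, and r was 0.433 without the 2 farthest arrays.

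**Figure D4:**
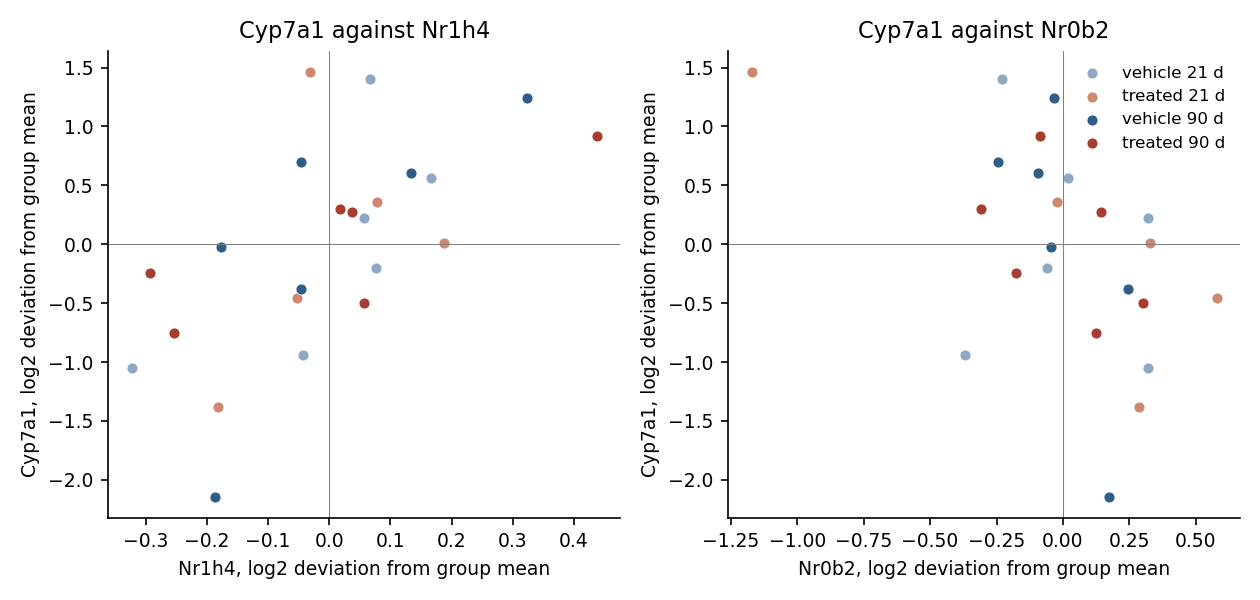
Deviation of Cyp7a1 from its group mean (vertical axes, log2) against that of Nr1h4 (left) and Nr0b2 (right); each of the 23 points is 1 animal, coloured by group. The left cloud rises (r = 0.636) and the right one falls (r = -0.528); in the right panel the point farthest to the left is treated 21 d replicate 2.

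A wider list of 41 measured genes of bile acid synthesis, transport, control and detoxification was set beside the 10. Of these 41, 0 passed in each of the 5 comparisons, against 1.17% of all genes at 21 d and 0.748% at 90 d. Unadjusted p-values were under 0.05 for 7 of 41 at 21 d and 7 of 41 at 90 d, and for 3026 and 2196 of 18193 genes. Their median treatment difference was -0.03 at 21 d and 0.03 at 90 d, beside -0.02 and 0.02 over all genes. The genes named below had the largest difference of their role in at least 1 comparison, and none of them passed in the fit over all 23 arrays; some passed in another setting, given beside them.

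Among 14 further synthesis genes, Hsd3b7, which acts after the 7alpha-hydroxylation step of either pathway, was at 13.30 ± 0.07 (SD, n = 6) and 13.05 ± 0.31 (SD, n = 5) in vehicle and treated animals at 21 d. That difference was -0.26 ± 0.11 (SE; limma, adjusted p = 0.26). Cyp46a1, the cholesterol 24-hydroxylase that makes the sterol Cyp39a1 acts on, was at 0.42 ± 0.14 (SE; limma, adjusted p = 0.748) between vehicle animals at 90 d and 21 d. Treated against vehicle animals at 90 d gave -0.36 ± 0.14 (SE; limma, adjusted p = 0.325), and both comparisons use the vehicle arrays at 90 d. Without the arrays of a large Gapdh gap, with 1 treated array left, its 21 d difference was -0.91 and passed (limma, adjusted p = 0.0317). Acot8, a peroxisomal thioesterase, was at 0.22 ± 0.06 (SE; limma, adjusted p = 0.126) at 90 d. It passed without treated 90 d replicate 6 (0.26, adjusted p = 0.0251), without all arrays of a large Gapdh gap (0.26, adjusted p = 0.0275) and with array weights (0.23, adjusted p = 0.0396).

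Transport genes gave values of similar size. Slco1b2, a hepatocyte uptake carrier, was at -0.29 ± 0.11 (SE; limma, adjusted p = 0.174) at 21 d and -0.17 ± 0.10 (SE) at 90 d, and the 4 uptake genes had values below 0 at 21 d, as had 10240 of 18193 genes, while at 90 d 2 lay below and 2 above 0. Abcb4, the phospholipid flippase of the bile canaliculus, had the lowest adjusted p of the 41 genes: vehicle arrays at 90 d lay between 11.39 and 11.79 and treated arrays between 11.55 and 12.25. Its difference of 0.43 ± 0.10 (SE; limma, adjusted p = 0.0611) passed in 6 of 10 other settings, with adjusted p from 0.00264 to 0.177 over all refits. It passed without treated 90 d replicate 3 (0.53, adjusted p = 0.00264) and without treated 21 d replicate 2 (0.43, adjusted p = 0.0346). Slc51b, a subunit of the basolateral exporter, was at 0.43 ± 0.16 (SE; limma, adjusted p = 0.299) at 90 d and -0.03 ± 0.16 (SE) at 21 d; without the arrays of a large Gapdh gap the 90 d value was 0.51 and passed (adjusted p = 0.0484). Slc10a2, the ileal uptake carrier, with a mean of 6.39 over all arrays, was at 0.42 ± 0.17 (SE, limma adjusted p = 0.301) between treated animals at 90 d and 21 d.

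Of the other exporters, Abcc4 and Abcc2 had values whose signs turned with the arrays used. Those given below for Atp8b1 and Abcg8 kept their sign in all refits. Abcc4, a basolateral exporter, had group means of 5.57 to 6.05, near the array medians of 5.53 to 5.61. Its differences were -0.32 ± 0.18 (SE) at 21 d and 0.47 ± 0.18 (SE, limma adjusted p = 0.275) between treated animals at 90 d and 21 d. Without treated 21 d replicate 2 these became -0.53 (adjusted p = 0.0462) and 0.69 (adjusted p = 0.0196), and with it as the only treated array they were 0.53 and -0.34. Abcc2, the canalicular conjugate exporter, was at 0.23 ± 0.13 (SE) at 21 d, and at -0.21 with that array alone. Atp8b1, a flippase that keeps the canalicular membrane intact, was at -0.26 ± 0.10 (SE; limma, adjusted p = 0.361) at 90 d, and at -0.34 (adjusted p = 0.044) without the arrays of a large Gapdh gap. Abcg8, a subunit of the canalicular sterol exporter, was at -0.21 ± 0.12 (SE) between vehicle animals at 90 d and 21 d.

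At 21 d the 3 largest positive treatment differences of the 41 genes were in regulators and detoxifying genes. Ephx1, the microsomal epoxide hydrolase, stood at 12.98 ± 0.23 (SD, n = 6) and 13.42 ± 0.06 (SD, n = 5) in vehicle and treated animals at 21 d, groups that did not overlap, where 2.81% of all genes did not. Its difference was 0.44 ± 0.13 (SE; limma, adjusted p = 0.0797) at 21 d and 0.45 ± 0.12 (SE; adjusted p = 0.0991) at 90 d. It passed at 90 d without treated 90 d replicate 3 (0.55, adjusted p = 0.0148) or replicate 6 (0.52, adjusted p = 0.0354), and at 21 d without treated 90 d replicate 3 (0.44, adjusted p = 0.0484). Among 10 other settings it passed in 2 at 21 d and in 2 at 90 d. Nr1i2, the pregnane X receptor, was at 0.38 ± 0.11 (SE; limma, adjusted p = 0.0766) at 21 d and 0.29 ± 0.10 (SE) at 90 d, and the 21 d value passed among probe sets with a mean of at least 6 (adjusted p = 0.046). Mafg, a repressor of bile acid synthesis genes, was at 0.32 ± 0.10 (SE; limma, adjusted p = 0.114) at 21 d, and passed as the mean of its probe sets (0.43, adjusted p = 0.0364) and with array weights (0.38, adjusted p = 0.0439). Ppargc1a, a coactivator, was at -0.43 ± 0.13 (SE; limma, adjusted p = 0.679) between the vehicle times and at -0.47 ± 0.14 (SE; adjusted p = 0.163) between the treated times. Sult2a8, a bile acid sulfotransferase, stayed between -0.06 and -0.01 in the 5 comparisons.

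**Figure D5:**
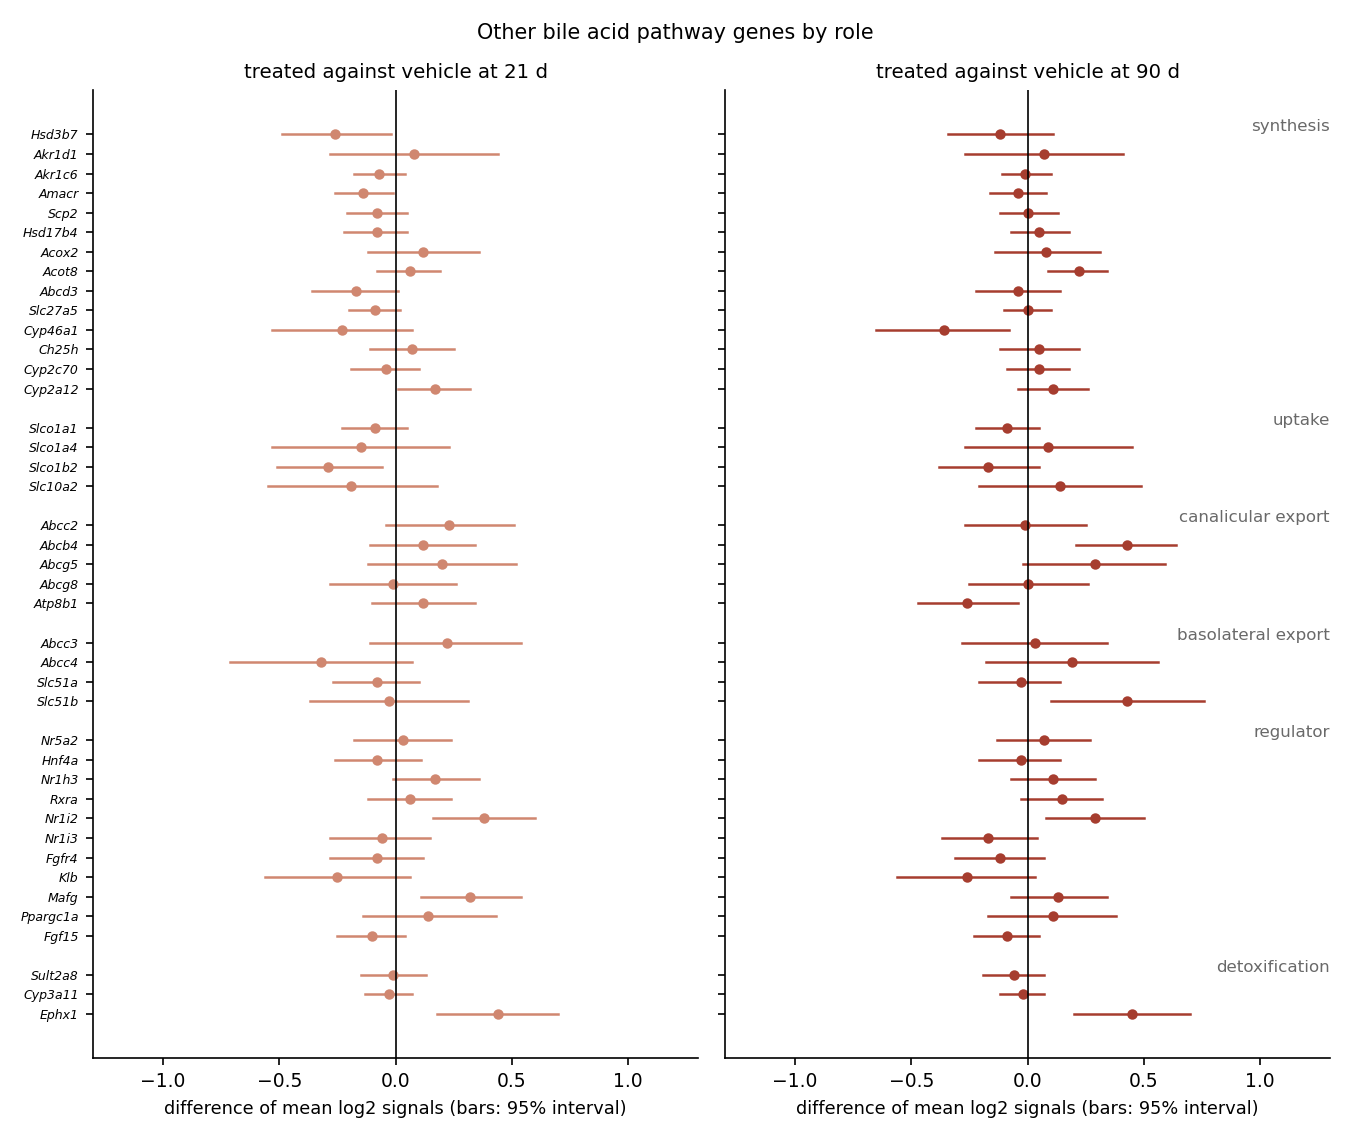
Difference of mean log2 signals between treated and vehicle animals (horizontal axes, bars are 95% intervals) for the 41 other genes, grouped by role, at 21 d (left) and 90 d (right). The points lie between -0.36 and 0.45; Ephx1 is the farthest right at both times, at 0.44 and 0.45.

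The genes whose pattern over the 23 arrays was most like that of Cyp39a1 were ranked by Pearson correlation among 10843 genes with a mean signal of at least 6. Tcf24 (r = 0.827), Csad (0.767), Hamp2 (0.741), Galnt1 (0.724), Tmem106b (0.703) and C130021I20Rik (0.703) came first. Slc43a3 (-0.902), Tmem19 (-0.859) and Prps2 (-0.851) came last. The arrays share 4 group means, and on deviations from those means the coefficients of the first 6 genes were 0.0106, 0.266, -0.0643, 0.272, 0.163 and 0.556. These coefficients describe a pattern over arrays and carry no test.

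Tcf24 had means of 9.49 ± 0.21, 8.71 ± 0.38, 8.77 ± 0.16 and 6.80 ± 0.83 (SD, vehicle 21 d, treated 21 d, vehicle 90 d, treated 90 d). Csad read 12.49 ± 0.34, 12.10 ± 0.33, 12.18 ± 0.22 and 11.04 ± 0.72 in the same order. Slc43a3 ran the other way, at 8.27 ± 0.19, 8.30 ± 0.27, 8.59 ± 0.20 and 8.99 ± 0.12. A high rank did not need a large difference. Galnt1 had means of 9.76, 9.75, 9.66 and 9.62, and C130021I20Rik of 6.34, 6.27, 6.14 and 6.13. Among the other 9 genes followed here, Cyp27a1 came nearest to Cyp39a1, at r = 0.545 and rank 91, and Abcb11 was at 0.482. On deviations from group means these coefficients were 0.123 for Cyp27a1 and -0.0631 for Abcb11.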

How the data were processed

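Liver RNA of 23 mice was measured on Affymetrix mouse genome arrays that read the 3′ end of transcripts. The deposited values are log2 signals per probe set, made by the authors with Partek and RMA per the submitters' processing notes, versions not given in the sources used here. No label states the log base, which is taken as 2 from the use of RMA and from values between 2.23 and 15.41. RMA gives all arrays a like distribution, so a change in total RNA cannot be seen.

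The 64 control probe sets were left out of the tests and 45037 were fitted with limma 3.58.1 in R 4.3.3, as 4 group means over all arrays (19 residual degrees of freedom), with Benjamini-Hochberg adjustment over all of them and a threshold of 0.05. The platform annotation gave 34945 probe sets to 1 gene, 932 to several and 9160 to none; the genes and their other probe sets come from the first kind. Correlations were tested by 100000 permutations within groups. The fit was tested on simulated data. The numbers in the sample names were checked as pairs, by correlating the deviations of same-numbered vehicle and treated arrays. Coefficients ran from -0.438 to 0.103, most of them below 0, so no strong positive likeness of same-numbered arrays was found. Such a check cannot exclude a pairing, and the main fit uses none. Named beyond the 10 genes were, for each role without a pass, the pathway gene with the largest difference in each comparison, and the 6 genes most and 3 least like Cyp39a1. The genes, lists and tests were chosen with earlier results of these data known. Promoter sequences come from RefSeq. Arrays come from separate animals, and their number limits the precision.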

Additional observations from a re-analysis of the deposited data

Results flagged for a closer look

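Among 40 groups of values of the 10 genes tested with Dixon's criterion, 1 animal was far from the others. Cyp7b1 in treated 21 d replicate 2 read 12.51 on the log2 scale against 13.36 to 13.57 in the other 4 treated arrays at 21 d, a gap of 0.802 of the group's range. Chance alone flags about 1 in 20 such groups.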

How the results depend on the processing

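The number of the 10 genes that passed at 90 d stayed at 1 in all alternatives, always Cyp39a1. At 21 d it was 0, or 1 (Nr0b2) when the arrays with a Gapdh gap over 0.9 were left out, which leaves 1 treated array at 21 d. In the same setting it fell from 1 to 0 between treated animals at 90 d and 21 d. For the vehicle times it ranged from 0 to 1 without 1 array. The replicate number as a block, for which a pairing was neither found nor excluded, took it from 1 to 0. The same block took the 90 d pathway count from 0 to 1. Wherever 1 of the 10 genes passed at 90 d or between times, it was Cyp39a1. That gene was chosen for its pattern, so nothing is read from those counts. The pathway count at 21 d, 0 of 41, became 1 with the mean of all probe sets, 2 with probe sets of a mean of at least 6, 2 with array weights and 1 without the arrays over 0.9, and ranged from 0 to 1 without 1 array. At 90 d it became 1, 1, 3 and 5 in these settings and 1 with the Gapdh gap as a covariate, and ranged from 0 to 2 without 1 array; between treated times that range was 0 to 1.

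Some values turned sign when the arrays over 0.9 were left out. At 21 d these were Cyp7a1 (1.34) and Cyp7b1 (-0.70), from values within 1 SE of 0, and Cyp8b1 (0.30), Abcc4 (0.53), Abcc2 (-0.21), Hsd3b7 (0.01) and Atp8b1 (-0.11). Between treated times they were Cyp7b1 (0.71), from a value within 1 SE of 0, and Cyp27a1 (0.10), Abcc4 (-0.34), Abcc2 (0.22), Hsd3b7 (-0.02), Slc51b (-0.35), Abcb4 (-0.13) and Abcg8 (0.31). For the difference of the effects they were Cyp8b1 (-0.21), Abcc4 (-0.30), Abcc2 (0.17) and Slc51b (-0.15). With the gap as a covariate the 21 d values of Abcc4 (0.05), Abcc2 (-0.02) and Atp8b1 (-0.12) turned, as did Slc51b (-0.03) and Abcg8 (0.02) between treated times. None of these had passed, and the cause was not tested. The rank of Hamp2 by likeness to Cyp39a1 went from 3 to 6394 on deviations from group means, where its coefficient changed sign. Other sign changes of values within 1 SE of 0 (170 of 4259 refits with those above) are not listed. The difference of the effects was not refitted on only the groups compared, since it uses all of them, and genes under a mean of 6 have no value under that filter.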
